A study of Homo sapiens with 18 samples.

Results

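BASP1 and WT1 were followed across 4 histone modifications in MOLM-13 cells, a human acute myeloid leukemia line that carries a KMT2A fusion. The members were all listed intervals that overlapped the gene body of either gene with 20 kb on each side in GENCODE 44 on hg38, with intervals within 2 kb of a transcription start site (TSS) kept apart from the others. This gave 67 of 275391 intervals, 36 at BASP1 and 31 at WT1. Many listed intervals overlapped each other, so that a read could be counted in up to 4 of them, and the 67 fell into 23 separate loci, 13 at BASP1 and 10 at WT1. Cells had been treated with 100 nM PR-957 (ONX-0914), an inhibitor of the immunoproteasome subunit PSMB8, or with the diluent DMSO for 72 h per the labels, whereas a legend of the study gives a shorter time for these libraries. H3K27ac, H3K4me1, H3K4me3 and H3K27me3 were profiled by Cut & Tag, in which an antibody guides a transposase to the modified nucleosomes. Each modification had 2 DMSO and 2 PR-957 libraries, 16 in all, and 2 IgG samples were not analysed here. All libraries came from this 1 cell line, and the labels do not state whether replicates were separate cultures, so that p-values measured the spread between libraries, which may be technical.

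BASP1 is a lipid-anchored, acidic protein first known from the membrane of nerve endings and growth cones, and in the nucleus it acts as a transcriptional corepressor. WT1 is a zinc finger transcription factor of kidney and gonad development that is also expressed in many acute leukemias, and BASP1 binds WT1 and can turn it from an activator into a repressor. H3K4me3 and H3K27ac mark active promoters, H3K4me1 with H3K27ac marks active enhancers, and H3K27me3 marks genes silenced by Polycomb. The study followed BASP1 as a protein that responds to PR-957, and the question here was whether the chromatin at its own gene, or at that of its partner WT1, differed after treatment. These libraries measured histone marks and gave no level of BASP1 or WT1 RNA or protein.

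The WT1 promoter is shown because the best covered H3K4me3 and H3K27ac intervals of WT1 lie over it. The window holds the 250 bases before the outermost of 4 start sites that lie within 30 bases of the canonical one, on the minus strand of hg38, chr11:32435565-32435814, and the capitals mark matches to the short motifs described after the sequence.
WT1 promoter: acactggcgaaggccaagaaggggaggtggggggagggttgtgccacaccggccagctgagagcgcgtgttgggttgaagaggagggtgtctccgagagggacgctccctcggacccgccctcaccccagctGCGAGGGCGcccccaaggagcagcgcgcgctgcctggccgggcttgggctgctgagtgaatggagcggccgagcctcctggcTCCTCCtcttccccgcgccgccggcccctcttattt

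The WT1 window was 70.0% G and C with 20 CpG sites, above 79.2% and 67.6% of 35116 RefSeq promoter windows of the same length (GRCh38.p14), whose medians were 58.0% and 11 sites. The relaxed form GCGNGGGNG of the GC-rich site shared by WT1 and the EGR zinc finger proteins, searched on both strands, was present in 1 place in the WT1 window, and 17.0% of all windows held it. The sharper form GCGTGGGAG was absent from the WT1 window and present in 0.6% of all. TCCTCC, a repeat unit also known to bind WT1, was present in 1 place against 31.8% of all windows, and it did not overlap the other match. These are matches of letters and not measured binding sites.

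**Figure D1:**
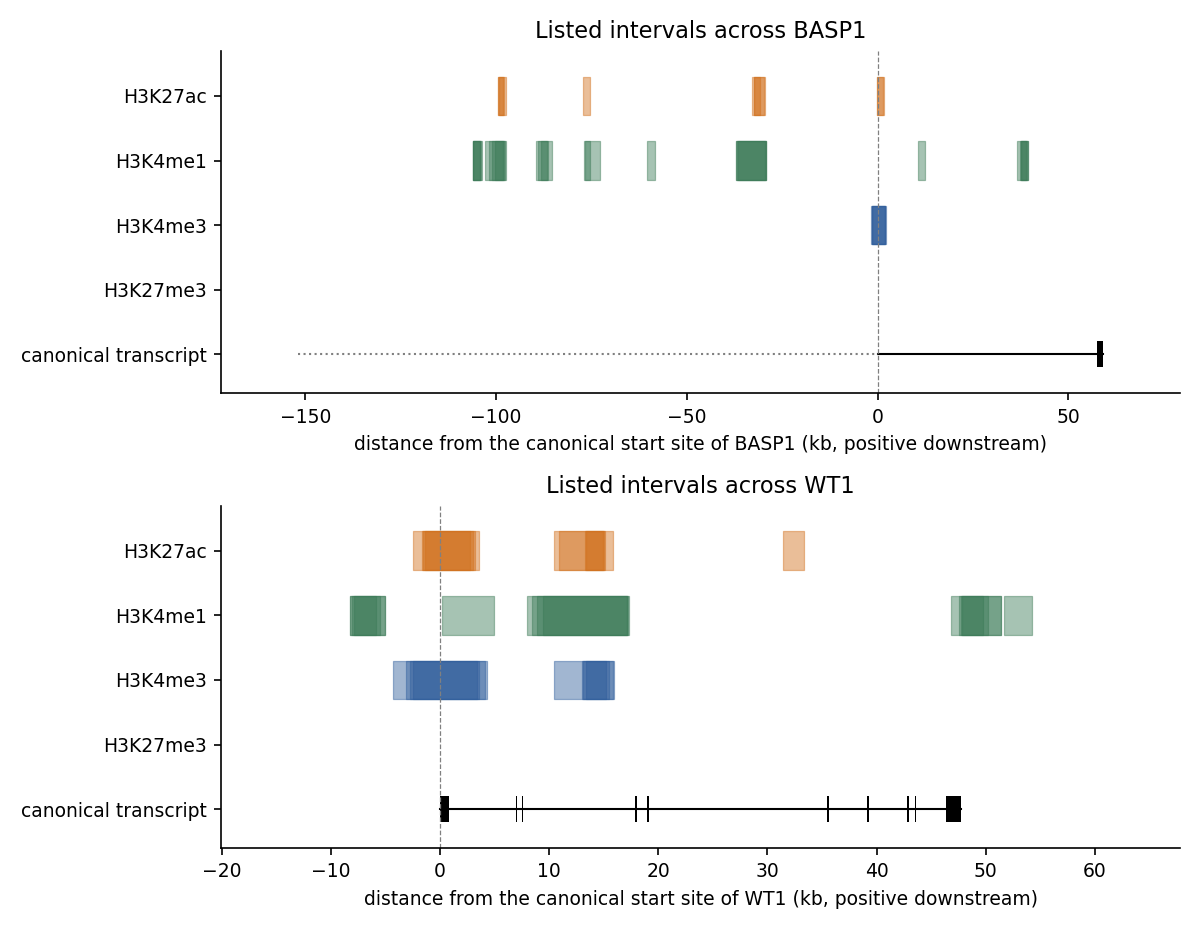
Listed intervals of each modification as bars by distance in kb from the canonical TSS of BASP1 (top) and WT1 (bottom), drawn with the gene running to the right. Darker colour marks overlapping intervals, black boxes are exons of the canonical transcript and the dotted line is the rest of the BASP1 gene body. H3K4me3 and H3K27ac lie over both starts, H3K4me1 lies at distal elements and also over exon 1 of WT1, and the H3K27me3 row is empty in both panels.

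BASP1 (ENSG00000176788.9) spans chr5:17065598-17276843 on the plus strand. Its canonical transcript starts at 17217631 and has 2 exons, and the antisense noncoding gene BASP1-AS1 starts beside the same promoter. Across BASP1, H3K4me3 was listed at 1 locus, over the promoter, H3K27ac at 4 loci and H3K4me1 at 8 loci. No H3K4me1 interval lay within 2 kb of a BASP1 TSS, and those nearest to the canonical TSS ended 29.3 kb upstream and began 10.5 kb downstream of it. WT1 (ENSG00000184937.16) spans chr11:32387775-32435564 on the minus strand, with 22 annotated transcripts from 21 distinct start sites. Its canonical transcript starts at 32435539 and has 10 exons, and the noncoding gene WT1-AS runs in the other direction from the same promoter. WT1 carried H3K4me3 at 2 loci, H3K27ac at 3 and H3K4me1 at 5, and both active marks were present over the promoter and again in intron 3. Cut & Tag reads carry no information on which strand is transcribed, so signal over either promoter cannot be told apart between the gene and its antisense partner.

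H3K27me3 was listed at neither gene. The H3K27me3 interval nearest to BASP1 lay 77.8 kb from the gene body on the side of lower coordinates, with 18 to 37 reads per library, and the next one on the other side lay 14361.1 kb away. At WT1 the nearest ones lay 314.4 kb and 936.9 kb away. The lists hold called intervals only, so a level below the calling threshold cannot be given for either gene.

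All 67 intervals passed the filter on low counts and were tested. None differed between PR-957 and DMSO at an adjusted p under 0.05 in edgeR's quasi-likelihood test, and none did in DESeq2. DESeq2 gave no adjusted p for 16 of them, 14 of the 18 in H3K27ac and 2 of the 37 in H3K4me1. These could not pass in DESeq2, and they include all H3K27ac intervals at BASP1. At an unadjusted p under 0.05, edgeR gave 3 of 18 intervals in H3K27ac, 2 of 37 in H3K4me1 and 0 of 12 in H3K4me3, and DESeq2 gave 0 in all 3. Over all tested intervals, 8.01%, 16.2% and 7.52% were under this unadjusted value in edgeR in the same order of marks, and 0.238% passed the adjusted threshold in H3K27ac, 1.94% in H3K4me1 and 0.226% in H3K4me3. The smallest adjusted p of a member in edgeR was 0.439 in H3K27ac, 0.234 in H3K4me1 and 0.757 in H3K4me3. An exact permutation test of 2 against 2 libraries cannot give a p below 0.333, so none is given for single intervals.

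At the BASP1 promoter, the best covered H3K4me3 interval (chr5:17215855-17219596, over exon 1) held 12.7 and 13.4 CPM (counts relative to the TMM-scaled library total) with DMSO and 15.0 and 14.3 CPM with PR-957. Both PR-957 libraries lay above both DMSO libraries. The means were 13.1 ± 0.509 and 14.6 ± 0.497 CPM (SD, n = 2 each), a log2 fold change of 0.16 with a standard error (SE) of 0.10 and an adjusted p of 0.761 in edgeR. The 95% interval ran from -0.03 to 0.36, and 432 to 567 reads per library stood behind these values.

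H3K27ac at the BASP1 promoter (chr5:17217447-17219353) was 3.56 and 3.83 CPM with DMSO and 5.44 and 4.65 CPM with PR-957. Here too both treated libraries lay above both controls. Only 38 to 66 reads per library covered the interval. Its log2 fold change was 0.44 (SE 0.29, edgeR adjusted p = 0.768), with a 95% interval from -0.14 to 1.02.

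At the WT1 promoter, H3K4me3 covered a broad interval of 8486 bp (chr11:32431395-32439881, over exon 1 and the start of WT1-AS) with 74.5 and 71.6 CPM in DMSO and 66.1 and 70.1 CPM in PR-957. The groups did not overlap, with PR-957 on the lower side. The means were 73.1 ± 2.04 and 68.1 ± 2.83 CPM (SD, n = 2 each), and the log2 fold change was -0.10 (SE 0.07, edgeR adjusted p = 0.813) with a 95% interval from -0.24 to 0.03. This was the best covered member, with 2013 to 3330 reads per library.

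WT1 promoter H3K27ac (chr11:32432318-32438031) was 41.0 and 40.0 CPM with DMSO and 34.7 and 41.1 CPM with PR-957. The groups overlapped, since the second PR-957 library lay above both DMSO libraries. The log2 fold change was -0.09 (SE 0.10, edgeR adjusted p = 0.906), and without the first PR-957 library it was 0.02. H3K4me1 beside the promoter (chr11:32430615-32435333) stopped 206 bp inside the canonical TSS and was 3.15 and 3.81 CPM with DMSO and 3.02 and 3.83 CPM with PR-957, with overlapping groups and an edgeR log2 fold change of -0.0007 (SE 0.25).

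**Figure D2:**
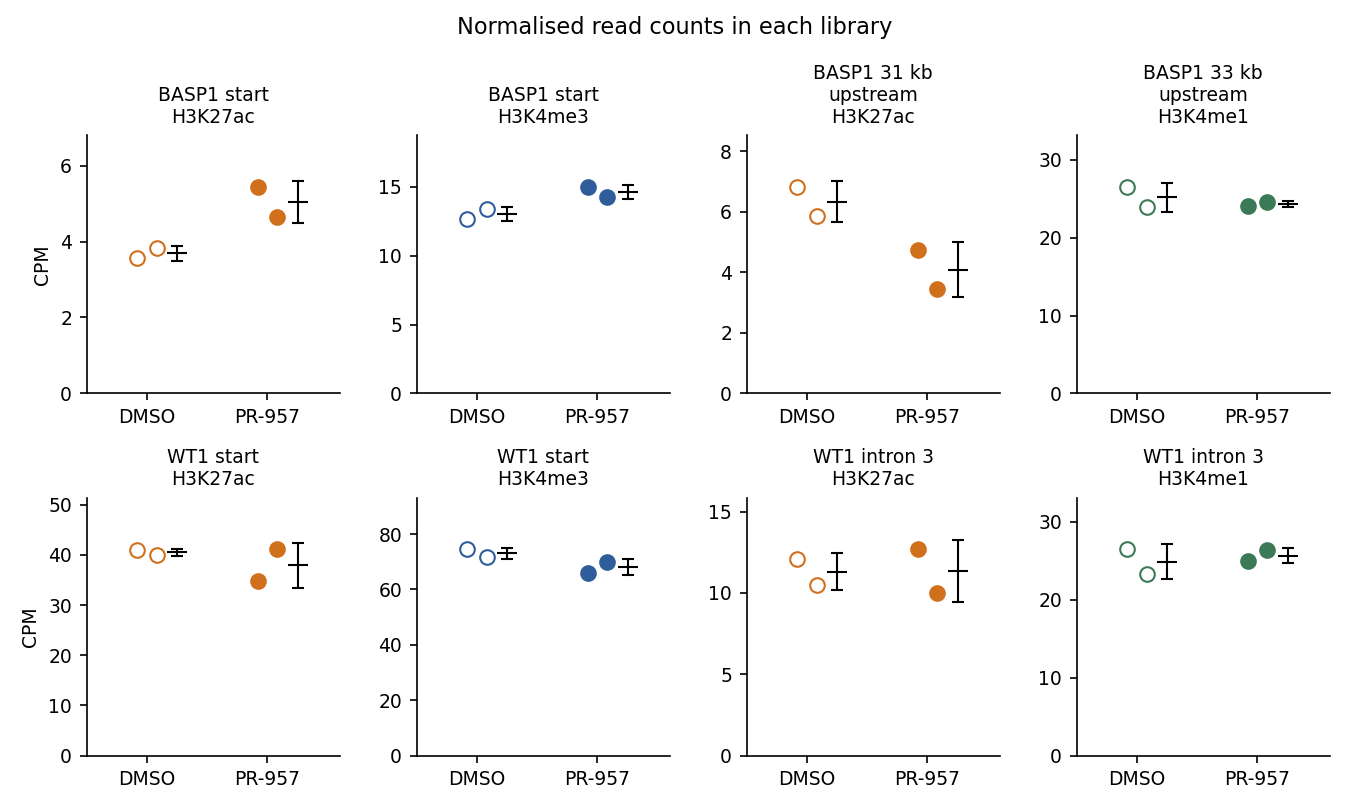
Normalised read counts (CPM, y axis from 0) in each library at 8 intervals of BASP1 (top) and WT1 (bottom), open circles for DMSO and filled circles for PR-957, with the mean and SD of each pair beside them. The treated libraries lie above the controls at the BASP1 promoter. They lie below them in H3K27ac 31 kb upstream of BASP1 and in H3K4me3 at the WT1 promoter. In H3K27ac at the WT1 promoter, in WT1 intron 3 and in H3K4me1 upstream of BASP1 they overlap the controls. None of these differences passed the adjusted threshold, and 36.9% of all H3K27ac and 36.6% of all H3K4me3 intervals did not overlap.

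The 2 genes differed in how much of each active mark their promoters held. Per kb of the best covered interval, WT1 carried 8.61 CPM of H3K4me3 in DMSO and BASP1 3.49. For H3K27ac the values were 7.09 and 1.94 CPM per kb. These levels depend on the width of the interval used. Nested versions at the same promoters gave 8.61 to 12.45 for WT1 and 3.37 to 3.95 for BASP1 in H3K4me3. In H3K27ac they gave 7.09 to 9.18 and 1.94 to 2.09. Among 12790 protein-coding genes with a tested H3K4me3 interval within 2 kb of a TSS, WT1 stood at percentile 93.1 and BASP1 at percentile 32.5. Among 12085 such genes in H3K27ac the places were 79.1 and 17.4. The WT1 H3K4me3 interval was also longer than those of most genes, at percentile 94.2 for length, whereas that of BASP1 was 3741 bp long at percentile 43.5. In the PR-957 libraries WT1 stood at percentile 90.8 and BASP1 at 39.3 in H3K4me3, and at 76.4 and 29.1 in H3K27ac.

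A ratio of both genes within a library does not depend on the scaling between libraries. In the same best covered intervals, the WT1 promoter held 2.59 and 2.36 times the H3K4me3 CPM per kb of the BASP1 promoter with DMSO. With PR-957 it held 1.95 and 2.17 times. For H3K27ac the ratio was 3.84 and 3.49 with DMSO and 2.13 and 2.95 with PR-957. WT1 was above BASP1 in all 8 of these libraries, and in both marks the ratios with PR-957 were lower than those with DMSO without overlap. In H3K4me3 this follows from the values given above, since BASP1 was higher and WT1 lower in both PR-957 libraries. In H3K27ac it rests on a BASP1 interval with 38 to 66 reads per library, while WT1 overlapped between the groups. The ratios are thus no separate evidence of a difference. Neither gene's own difference passed the test, and the difference in ratio was not tested, since 2 against 2 libraries allow no p below 0.333 by exact permutation.

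**Figure D3:**
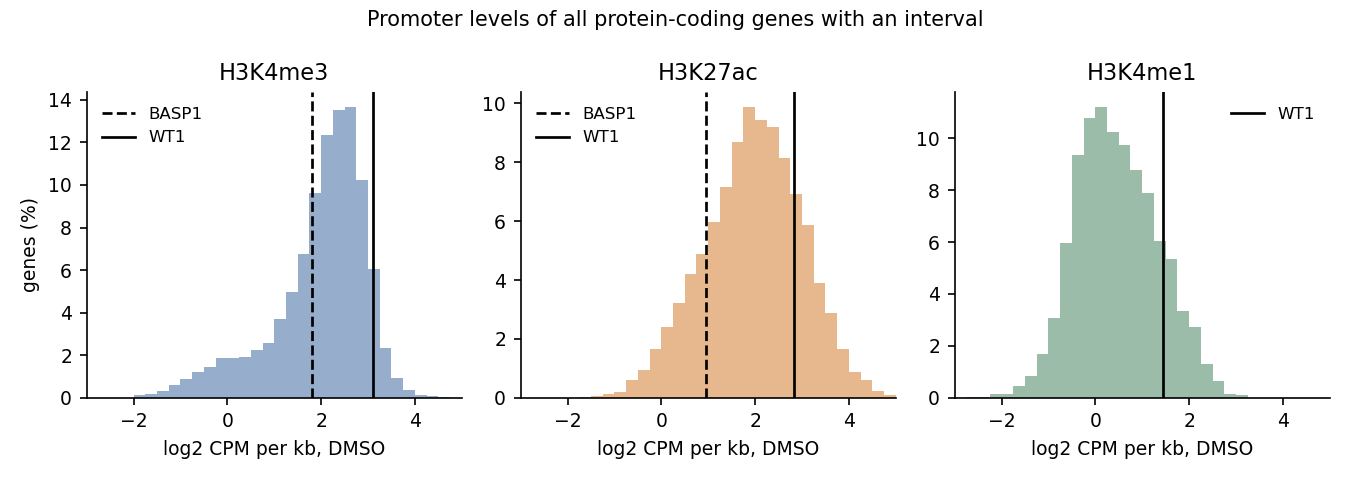
Share of protein-coding genes (%, y axis) by the DMSO level of their best covered interval within 2 kb of a TSS (log2 CPM per kb, x axis) for H3K4me3, H3K27ac and H3K4me1. The dashed line is BASP1 and the solid line WT1, so that BASP1 lies in the lower part and WT1 in the upper part of the first 2 distributions. In H3K4me1 the WT1 line is the intron 3 element, about 13 kb downstream of the canonical TSS. The H3K4me1 interval over exon 1 of WT1 held 0.737 CPM per kb in DMSO. BASP1 has no H3K4me1 interval at its promoter.

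The distal element of BASP1 with the most H3K4me1 was centred about 33.2 kb upstream of the canonical TSS. H3K4me1 there (chr5:17180508-17188323) was 26.5 and 23.9 CPM with DMSO and 24.1 and 24.6 CPM with PR-957, so that the groups overlapped, with a log2 fold change of -0.05 (SE 0.12, edgeR adjusted p = 0.872). H3K27ac within it (chr5:17184717-17187902) was 6.81 and 5.85 CPM with DMSO and 4.73 and 3.45 CPM with PR-957. Both treated libraries lay below both controls, on 47 to 90 reads per library. The log2 fold change was -0.66 (SE 0.27, unadjusted p = 0.0135, adjusted p = 0.439 in edgeR), and the 95% interval from -1.18 to -0.14 lay below 0 only before the adjustment over 74510 intervals. This element, like the other distal intervals described here, was singled out after its values were seen, and all 3 H3K27ac intervals with an unadjusted p under 0.05 were overlapping versions of it.

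The further H3K27ac loci of BASP1 were centred at -98.5 and -76.3 kb from the canonical TSS, the former near the start of a Y RNA copy. The farther one (chr5:17118132-17120108) was 5.75 and 4.24 CPM with DMSO and 6.24 and 7.11 CPM with PR-957, higher in both treated libraries, with a log2 fold change of 0.41 (SE 0.25, edgeR adjusted p = 0.723). The other, on 12 to 34 reads per library, overlapped between groups. Thus of the 9 H3K27ac intervals at BASP1, 6 had a fold change above 0 and 3 below 0, and 8 of 9 did not overlap between PR-957 and DMSO. Over all H3K27ac intervals 36.9% did not overlap, and the 9 were 4 loci whose nested intervals share reads. At WT1, 1 of 9 did not overlap.

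Of the 23 H3K4me1 intervals at BASP1, 17 had a fold change above 0 and 6 below 0, with a median log2 fold change of 0.10 against -0.001 over all tested H3K4me1 intervals. The groups did not overlap in 7 of the 23, a smaller share than the 46.7% of all H3K4me1 intervals. The interval with the smallest p (chr5:17157222-17159189, near the start of the 5S rRNA pseudogene RNA5SP180) held 0.610 and 0.502 CPM with DMSO and 1.03 and 1.48 CPM with PR-957. Its log2 fold change of 1.18 (SE 0.53, adjusted p = 0.234 in edgeR) rested on 12 to 34 reads per library. In intron 1, the locus 37.8 kb downstream of the TSS was 3.12 and 3.09 CPM with DMSO and 3.72 and 3.83 CPM with PR-957, a log2 fold change of 0.28 (SE 0.24, edgeR adjusted p = 0.596).

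The distal element of WT1 with the most H3K4me1 lay in intron 3, about 13 kb downstream of the canonical TSS. Its H3K4me1 interval (chr11:32418370-32427581) is the best covered H3K4me1 interval near any WT1 TSS, since WT1 transcripts other than the canonical one start within 2 kb of it. It was 26.5 and 23.3 CPM with DMSO and 25.0 and 26.4 CPM with PR-957. The groups overlapped, with a log2 fold change of 0.04 (SE 0.11, edgeR adjusted p = 0.890). At 2.70 CPM per kb in DMSO it stood at percentile 85.0 of 8701 genes with an H3K4me1 interval at a TSS. H3K27ac in the element (chr11:32420390-32425130) was 12.1 and 10.5 CPM with DMSO and 12.7 and 9.99 CPM with PR-957, and H3K4me3 (chr11:32420081-32425060) was 3.51 and 2.91 CPM against 3.48 and 2.94 CPM. All 3 marks of the element overlapped between the groups in these best covered intervals, and the log2 fold changes of H3K27ac and H3K4me3 were -0.02 (SE 0.18) and -0.0016 (SE 0.24) in edgeR. The 3 narrower H3K4me3 intervals nested there did not overlap, for example 3.13 and 2.52 CPM with DMSO against 2.36 and 1.95 CPM with PR-957 at chr11:32419737-32422569, with a log2 fold change of -0.39 (SE 0.28, edgeR adjusted p = 0.827).

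Of the 14 H3K4me1 intervals at WT1, 13 had a fold change above 0, with a median log2 fold change of 0.12. The 14 came from 5 loci whose nested intervals share reads. The groups did not overlap in 5 of the 14, against 46.7% of all H3K4me1 intervals. Among these 5 were 4 nested intervals upstream of WT1, all higher in both treated libraries. They lay within 2 kb of start sites of other annotated genes, not of WT1. The best covered of the 4, centred at -6.6 kb from the TSS (chr11:32440566-32443619), was 3.12 and 2.76 CPM with DMSO and 4.17 and 3.31 CPM with PR-957. Its log2 fold change was 0.33 (SE 0.25, edgeR adjusted p = 0.536), and the nested interval with the smallest p (chr11:32441441-32443742) reached 0.58 (SE 0.27, adjusted p = 0.261). Past the end of the gene, H3K4me1 (chr11:32384126-32387842) was 3.93 and 4.64 CPM with DMSO and 4.04 and 5.04 CPM with PR-957, with overlapping groups. This interval lay mostly downstream of WT1 and reached only the last bases of exon 10.

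H3K4me3 had opposite signs at the 2 genes. All 4 intervals at BASP1 had a fold change above 0, with log2 values from 0.16 to 0.17, and all 8 at WT1 had one below 0, from -0.39 to -0.002. The groups did not overlap in 4 of 4 and 7 of 8 of these, against 36.6% of all H3K4me3 intervals. The 4 at BASP1 were versions of 1 promoter interval and the 8 at WT1 came from 2 loci, so that these counts come from 3 loci in the same 4 libraries.

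**Figure D4:**
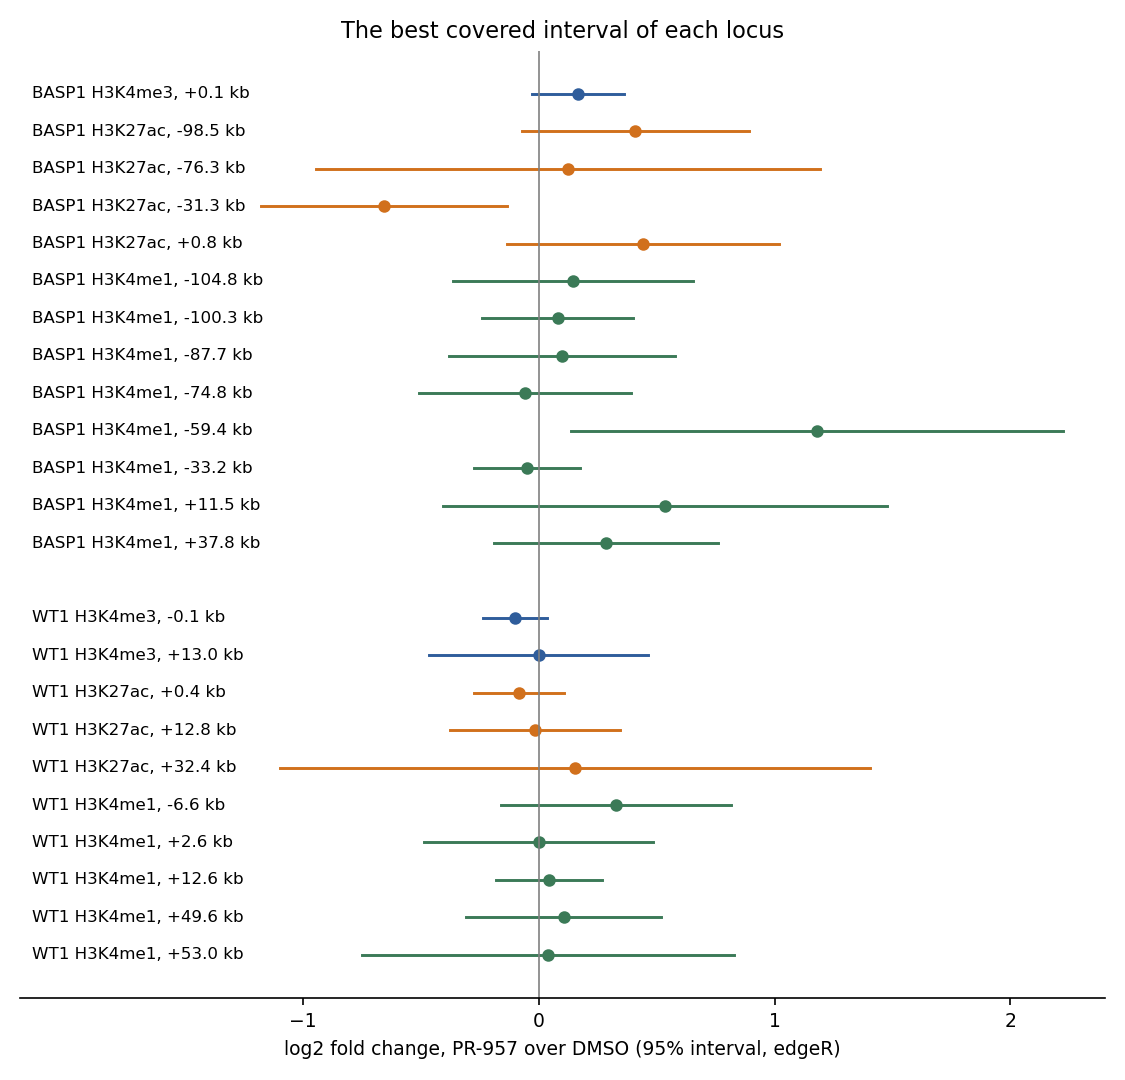
Log2 fold change of PR-957 over DMSO (x axis) for the best covered interval of each of the 23 loci, with its 95% interval from edgeR, labelled by gene, mark and distance of its centre from the canonical TSS in kb. The intervals of 21 loci include 0, the exceptions being H3K27ac at -31.3 kb and H3K4me1 at -59.4 kb of BASP1, and neither passed the adjustment over all intervals.

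The genes around BASP1 and WT1 in their pathway were read from the best covered interval within 2 kb of a TSS of each gene. Any annotated TSS counted, so the marks of a gene could be read at different start sites, not always its main promoter. HDAC1, for example, was read at chr1:32291171-32294177 in H3K27ac and at chr1:32333309-32338575 in H3K4me3. Of 13 partner proteins of WT1 or BASP1, such as the prohibitins PHB1 and PHB2, the deacetylases HDAC1 and HDAC2 and the acetyltransferase CREBBP, 11 had such an interval in H3K27ac, 12 in H3K4me3, 6 in H3K4me1 and 2 in H3K27me3. None of these 31 tests passed in edgeR or in DESeq2, and at an unadjusted p under 0.05 there were 4 in edgeR and 2 in DESeq2. Over all protein-coding genes with such an interval, 0.480% passed in H3K27ac, 0.219% in H3K4me3, 2.15% in H3K4me1 and 11.8% in H3K27me3. The unadjusted shares over these genes were 9.55% in H3K27ac, 8.04% in H3K4me3, 16.9% in H3K4me1 and 22.9% in H3K27me3 in edgeR. The list's median log2 fold change was 0.05 in H3K27ac and 0.05 in H3K4me3, beside 0.001 and -0.01 over all genes, and -0.17 in H3K4me1 and -0.14 in H3K27me3, beside -0.08 and -0.02.

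Of 20 genes described as regulated by WT1, 15 could be tested in H3K27ac, 17 in H3K4me3, 12 in H3K4me1 and 9 in H3K27me3. One of these 53 tests passed in edgeR and none in DESeq2, with 10 and 4 at an unadjusted p under 0.05. Medians of this list were -0.04 in H3K27ac, -0.05 in H3K4me3, -0.15 in H3K4me1 and 0.06 in H3K27me3 on the log2 scale. The single call, 1 of 9 in a mark where 11.8% of all genes passed, was H3K27me3 at IGF2, an imprinted growth factor gene, at 319.5 and 327 CPM with DMSO and 303 and 274 CPM with PR-957 (log2 fold change -0.16, SE 0.05, adjusted p = 0.0358 in edgeR). Scaled by library size alone, this value was -0.004, since TMM scaling moved the median of all H3K27me3 intervals by -0.16, and it missed the threshold in DESeq2 (adjusted p = 0.0564), with median-of-ratios scaling in edgeR (0.0569) and with a mean count filter of 50 (0.163). The edgeR call was also lost without either DMSO library (adjusted p of 0.230 and 0.396) and without the second PR-957 library (0.288). The 4 EGR genes, zinc finger relatives that share the GC-rich site with WT1, had 2 tests at an unadjusted p under 0.05 in edgeR and 1 in DESeq2. In H3K4me1, where 2.15% of all genes passed, 1 of the 3 tested EGR genes did. This was EGR3, at 10.9 and 11.2 CPM with DMSO and 6.67 and 7.70 CPM with PR-957. EGR3 passed in edgeR (log2 fold change -0.61, SE 0.15, adjusted p = 0.0106) but not in DESeq2 (adjusted p = 0.411). It was 1 of 13 tests of this list, and the edgeR call was lost without either DMSO library (adjusted p of 0.111 and 0.0985) and without the first PR-957 library (0.157).

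The relatives of BASP1, which like it are acidic, lipid-anchored proteins of the inner cell membrane, gave 6 tests and no call in edgeR or DESeq2, with 0 at an unadjusted p under 0.05 in both. H3K4me3 at MARCKS was 4.16 and 4.76 CPM with DMSO and 6.43 and 3.37 CPM with PR-957, and at MARCKSL1 it was 15.5 and 16.3 against 17.1 and 17.3 CPM. The latter interval also represents the neighbouring HDAC1 among the partner proteins, and EGR1 stands in both the EGR and the regulated list. Per kb in DMSO these promoters stood at percentiles 6.86 and 26.2, below the 32.5 of BASP1. MARCKS carried H3K27me3 at its promoter (15.8 and 15.8 CPM with DMSO, 15.2 and 13.2 CPM with PR-957), which BASP1 did not, and GAP43 had no tested interval of any of the 4 marks within 2 kb of a TSS.

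The 5 protein-coding genes with the pattern most like that of BASP1 were POLR3A, BBLN, ZFP90, UNC119B and PKN3, out of 3811 genes with H3K27ac and H3K4me3 but no other mark at the promoter. Likeness was the Euclidean distance over log2 CPM per kb in the 8 libraries of these marks, from 0.419 to 0.478. POLR3A held 2.08 CPM per kb of H3K27ac and 3.39 of H3K4me3 in DMSO, near the 1.94 and 3.49 of BASP1. For WT1 the 5 were EPOR, the erythropoietin receptor, then ZDHHC7, FOXP4, RTN4 and CAMTA2, out of 6223 genes with the same 3 marks over 12 libraries, at distances from 0.394 to 0.531. EPOR held 6.77 CPM per kb of H3K27ac, 2.82 of H3K4me1 and 7.72 of H3K4me3 in DMSO, and WT1 held 7.09, 2.70 and 8.61. The H3K4me1 value of WT1 is that of the intron 3 element, so its pattern does not describe the promoter alone. The H3K4me1 interval over exon 1 of WT1 held 0.737 CPM per kb in DMSO.

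Summed over listed intervals, the libraries held 9885836 to 14165777 reads in H3K27ac, 10032503 to 12047958 in H3K27me3, 15204186 to 30584219 in H3K4me1 and 30070119 to 44591150 in H3K4me3. In H3K4me3 and in H3K4me1 both PR-957 libraries had lower totals than both DMSO libraries, and the part of this in the differences at BASP1 and WT1 was not tested. As a check of the cell type, 7 of 8 myeloid marker genes had an H3K4me3 interval within 2 kb of a TSS, the exception being MPO. Of the markers of other cell types reported here, EPCAM and KLF1 had one, at percentiles 2.87 and 0.625 of all genes, whereas CD3D, CD3E, CD79A, HBB and CDH1 had none.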

How the data were processed

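Cut & Tag libraries of MOLM-13 cells were analysed from the read counts per interval that the authors deposited, 1 shared interval list for the 4 libraries of each modification. Per the study's methods, reads were aligned to hg38 with Bowtie2 and peaks called with MACS2 or SEACR. The submitters' processing notes name Trimmomatic 0.39, Bowtie2 2.2.5, Picard 2.27.1, SAMtools 1.7, SEACR 1.3 and deepTools 3.5.1. The counting tool, the handling of duplicates and the joining of intervals were not given in the sources used here, and because intervals overlap, a total over the list counts some reads more than once and is not the sequencing depth.

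Counts were normalised by TMM and tested with edgeR 4.0.16 (R 4.3.3; glmQLFit, glmQLFTest) after filterByExpr with a minimum count of 10, over all intervals of a modification, PR-957 against DMSO, with Benjamini-Hochberg adjustment at 0.05. The replicate number was not used in the model. Alternatives were DESeq2 1.42.0, other scaling, filters, windows, a replicate block and leaving out each library. CPM used TMM-scaled totals, and intervals or genes of different length were set side by side per kb. Intervals kept the coordinates of the files. The WT1 promoter was taken from hg38 and compared with RefSeq windows of the same length. The promoter sequence of BASP1 and some marker genes are not reported here. The edgeR steps were tested on simulated data.

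The members, the lists of partners, regulated genes, relatives and cell type markers and the tests were chosen with earlier results of these data known. Named were BASP1 and WT1, the best covered interval within 2 kb of a TSS for each mark, each member interval past the threshold, at most 4 list genes per mark past it with the smallest p, the relatives of BASP1 and the 5 genes of most similar pattern per member.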

Additional observations from a re-analysis of the deposited data

How the results depend on the processing

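The count of BASP1 and WT1 intervals past an adjusted p of 0.05 was 0 in H3K27ac, H3K4me1 and H3K4me3 under each of the 13 alternatives per mark, DESeq2 and the leave-one-out fits included. Of the 55 values recomputed for the best covered interval of each mark within 2 kb of a TSS of either gene, which for H3K4me1 at WT1 is the intron 3 element, 2 changed sign, both at WT1. Its values ranged from -0.223 to 0.022 in H3K27ac and from -0.043 to 0.144 in H3K4me1 when 1 library was left out. Without the first PR-957 library its H3K27ac log2 fold change was 0.022, and without the second DMSO library its H3K4me1 log2 fold change was -0.043. Across alternatives, BASP1 stayed between 0.334 and 0.559 in H3K27ac and between 0.125 and 0.204 in H3K4me3, and WT1 between -0.146 and -0.06 in H3K4me3. Leaving out the second PR-957 library took the H3K27ac intervals with an unadjusted p under 0.05 from 3 to 0. The replicate numbers are shared between groups in the labels but need not mark pairs, and the deviations of same-numbered libraries correlated at -0.00886 in H3K27ac, 0.00682 in H3K4me1 and 0.167 in H3K4me3. With the replicate block the count stayed at 0 in each mark, with a BASP1 promoter log2 fold change of 0.446 in H3K27ac and 0.165 in H3K4me3. Of the list genes called, IGF2 in H3K27me3 lost its call under the replicate block (adjusted p = 0.103 in edgeR) and EGR3 in H3K4me1 kept it (0.00923). A fit without 1 library assumes that the lone library of its group varies like the other pair. H3K27me3 gave no value at either gene and H3K4me1 none at the BASP1 promoter, since no interval was listed there. In H3K27ac the DESeq2 count of 0 says nothing about BASP1, since DESeq2 gave no adjusted p for any interval there. Low read counts limit both genes, with a minimum per library and interval of 12 reads at BASP1 and 8 at WT1 in H3K27ac.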
